A study of Mus musculus with 10 samples.

Results

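Birc5, E2f1, Mir17hg and 7 genes of the step from G1 into S phase were followed in mouse liver with and without added LKB1. The 10 genes were taken by their symbol in the platform annotation, which gave 24 of the 45281 probes on the array and 10 of 19057 annotated genes. They were selected on the log2 difference between the groups on these same arrays, which was known above all for Birc5 and Mir17hg, so their group values are given as a description with no test.

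The samples, labelled as liver hepatocytes, came from 10 mice of the inbred FVB strain, and the RNA of each mouse was hybridised to its own Illumina bead array. In 6 of them, called LKB1 mice here after their label, a plasmid coding for wild-type LKB1 was given through the tail vein, with 1 injection each week for 8 weeks, while the other 4 mice were untreated. LKB1, encoded by Stk11, is a tumour suppressor kinase that activates AMPK, and the comparison addresses which liver genes differ when it is supplied. The sources used here do not give the promoter of the plasmid, the age or sex of the mice or any injection into untreated mice, so an effect of repeated injection cannot be told apart from one of LKB1.

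D-type cyclins (Ccnd1, Ccnd2, Ccnd3) activate the kinase Cdk4, which phosphorylates the retinoblastoma protein and so frees E2F factors such as E2F1 to switch on S phase genes, among them Ccne2, which encodes cyclin E2. The proteins p27 (Cdkn1b) and p18 (Cdkn2c) are inhibitors of cyclin-dependent kinases. Birc5 encodes survivin, a member of the inhibitor of apoptosis family that works in the chromosomal passenger complex during mitosis and is made mostly by dividing cells. Mir17hg is the host transcript of the miR-17-92 cluster, whose transcription is known to be driven by MYC and E2F factors and whose miR-17 and miR-20a are known to repress E2F1. Most hepatocytes of an adult liver rest outside the cell cycle, and cyclin D1 is known to accumulate when they re-enter it.

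The mature microRNAs carried by the Mir17hg transcript are shown because its probe had the largest absolute log2 difference among the 14 measured probes of the 10 genes. They are the RefSeq entries on the GRCm38.p6 assembly, on the plus strand, 1 arm from each of the 6 hairpins of the cluster, with the seed (bases 2 to 8) in capitals.
mmu-miR-17-5p: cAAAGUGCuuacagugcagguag
mmu-miR-20a-5p: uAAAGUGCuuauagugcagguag
mmu-miR-18a-5p: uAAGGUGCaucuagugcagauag
mmu-miR-19a-3p: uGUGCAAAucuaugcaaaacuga
mmu-miR-19b-3p: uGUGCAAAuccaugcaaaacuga
mmu-miR-92a-3p: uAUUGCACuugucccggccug
The 6 microRNAs fall into 4 seed groups: miR-17 and miR-20a share a seed, miR-19a and miR-19b share another, and miR-18a and miR-92a each have their own. They lie in the order miR-17-5p at chr14:115043684-115043706, miR-18a-5p at chr14:115043867-115043889, miR-19a-3p at chr14:115044048-115044070, miR-20a-5p at chr14:115044183-115044205, miR-19b-3p at chr14:115044358-115044380 and miR-92a-3p at chr14:115044476-115044496. RefSeq's annotated start of Mir17hg in this assembly, position 115044390, lies inside the cluster, so that 4 hairpins end before it, 1 spans it and 1 lies after it. The array holds 1 probe of the host transcript, and the sources used here do not give which part of it the probe reads. The mature microRNAs were not measured.

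Between 15374 and 16836 probes were detected per array in LKB1 mice and between 16038 and 16839 in untreated mice, where detected means a detection p-value under 0.05. A probe detected on at least 4 arrays counts as measured, which held for 16803 probes of 9725 genes. Stk11 itself averaged 9.66 (range 9.56 to 9.82) on the log2 scale in LKB1 mice and 9.60 (range 9.47 to 9.76) in untreated mice, a difference of 0.06 ± 0.08 (SE, limma adjusted p = 0.93), and the sources used here do not say whether its probe matches the transcript of the plasmid. Clustering by probes that no array detected, cut into 2 sets, gave a set A (LKB1 1, 2 and 4, untreated 1 and 2) and a set B (LKB1 5, 6 and 7, untreated 3 and 4). The cut fixed the number of sets, how far they stand apart was not tested, and the labels do not name them. As the labelled source is hepatocytes, their markers were looked at first: all 7 genes were measured, with a median log2 difference of 0.03 between the groups. Their levels differed widely. Tat averaged 4.99 in LKB1 mice and 5.18 in untreated mice, near background, and Alb 8.47 and 8.43, while Apoa1 averaged 14.99 and 15.03. Kupffer cell and macrophage markers averaged higher in LKB1 mice for 9 of 9 genes measured, the median log2 difference being 0.31, and had a summed level of 3466 to 4671 in LKB1 mice and 2373 to 4147 in untreated mice. Of 6 erythroblast markers measured, 4 averaged lower in LKB1 mice, with a median log2 difference of -0.11. Their sum, carried mostly by Hba-a1, lay between 7628 and 26509 in LKB1 mice and between 13571 and 21752 in untreated mice. None of these marker genes passed the limma threshold, and their part in the values below was not tested. Where a sample holds several cell types, fewer cells of a type and less RNA per cell cannot be told apart.

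Of the 24 probes, 14 were measured, and they represent 9 of the 10 genes. In LKB1 mice 7 of these probes were higher and 7 lower on average, with a median log2 difference of 0.01, against -0.00 over all 16803 measured probes. No probe of the 10 genes passed the adjusted limma threshold of 0.05, and neither did any other probe (0%, 0 of 16803, smallest adjusted p = 0.166), while 1119 had an unadjusted p under 0.05. Every LKB1 mouse lay below every untreated mouse for Birc5 and above for Mir17hg, and the groups overlapped for the other 12 probes. Over all measured probes this held for 0.797% in the downward direction and 0.571% in the upward direction, or 1.37% together, and since the genes were picked with these values in view, nothing is read from the count. The remaining 10 probes, of which 7 were detected on no array, lay between 4.24 and 5.0 on the log2 scale.

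**Figure D1:**
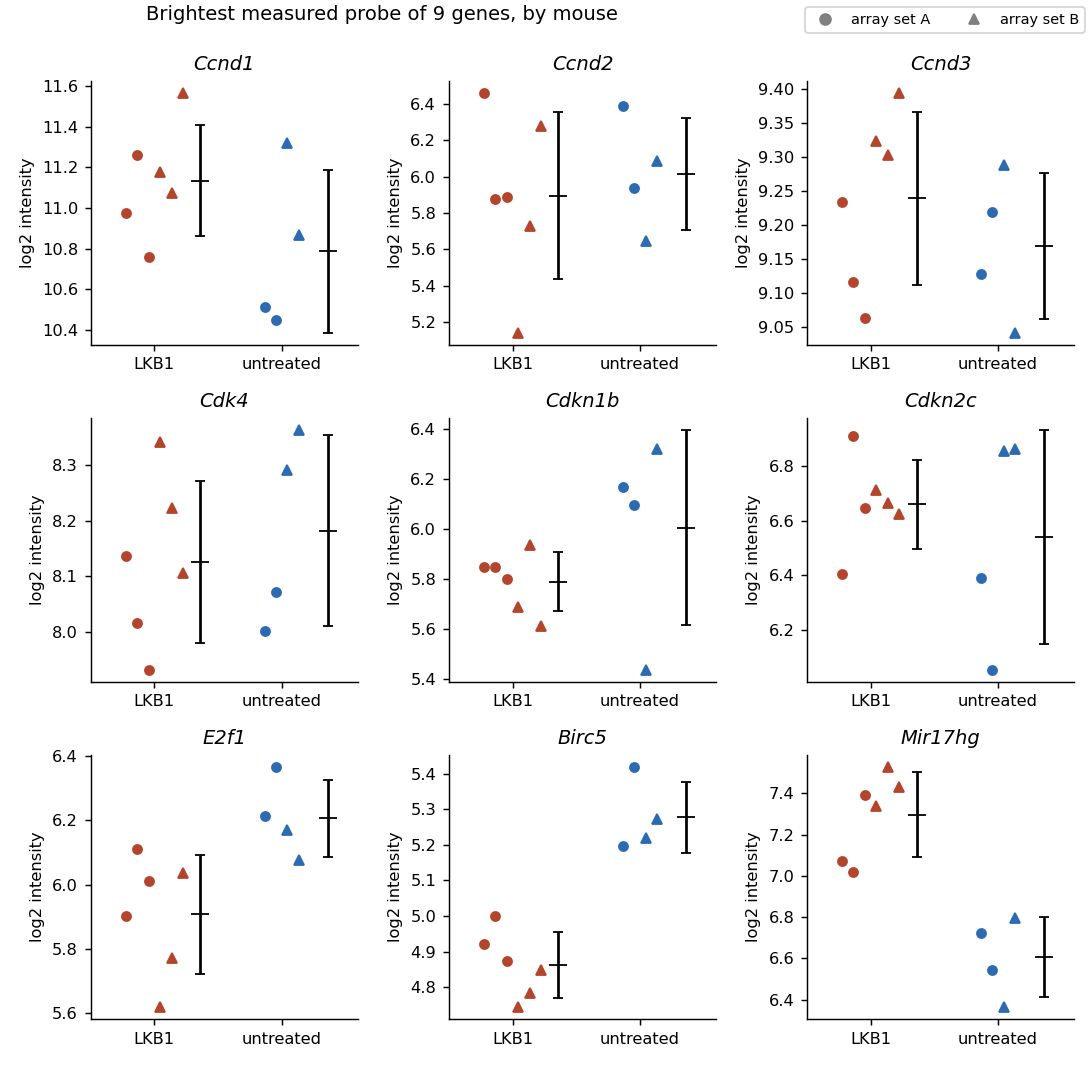
Log2 normalized intensity per mouse for the brightest measured probe of 9 genes, with LKB1 mice (red) left of untreated mice (blue) and each panel on its own axis; bars are mean ± SD, and circles and triangles mark array sets A and B. The groups stay apart for Birc5 and Mir17hg, and for E2f1 the LKB1 mouse at 6.11 lies above the untreated mouse at 6.08.

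Ccnd1, which encodes cyclin D1, was read by 3 probes that each averaged higher in LKB1 mice, with overlapping groups. Its brightest probe (ILMN_1221503) ranged from 10.76 to 11.57 with a median of 11.12 on the log2 scale in LKB1 mice, against 10.51, 10.45, 11.32 and 10.87 in untreated mice 1 to 4. Untreated mice 1 and 2 lay below every LKB1 mouse, while untreated mouse 3 lay above the LKB1 median. The log2 difference was 0.35 ± 0.18 (SE), and the other probes gave 0.30 ± 0.15 and 0.32 ± 0.15. Without untreated mouse 3 the first of these was 0.53 and without untreated mouse 2 it was 0.24, and it was 0.52 within set A and 0.18 within set B. With array medians made equal in place of quantile normalization, which moved the median of all genes to -0.16, the 3 probes gave 0.12, 0.09 and 0.11 in the same order, or 0.28, 0.25 and 0.27 above that median.

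Cyclin D2 (Ccnd2) averaged 5.90 ± 0.46 (SD, n = 6) in LKB1 mice and 6.01 ± 0.31 (SD, n = 4) in untreated mice at its brighter probe, a log2 difference of -0.12 ± 0.22 (SE). The LKB1 mice spread from 5.14 to 6.46 with a median of 5.88, a range that holds the untreated values of 6.39, 5.94, 5.65 and 6.08. Without LKB1 mouse 5, at 5.14, the difference was 0.03. The second measured Ccnd2 probe, detected in 5 of 6 LKB1 mice and 4 of 4 untreated mice, differed by -0.24 ± 0.15 (SE), by -0.15 without LKB1 mouse 5 and by -0.12 with an offset of 50 in place of 16. Cyclin D3 (Ccnd3) had values of 9.06 to 9.39 with a median of 9.27 in LKB1 mice, against 9.13, 9.22, 9.29 and 9.04 in untreated mice. The groups lay within the same narrow span, with a log2 difference of 0.07 ± 0.09 (SE), -0.04 within set A and 0.18 within set B. Within set B every LKB1 mouse lay above both untreated mice, but with only 5 mice in a set the groups were apart, in either direction, for 23.5% of all measured probes within set A and 21.1% within set B.

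Cdk4, the kinase partner of these cyclins, ranged from 7.93 to 8.34 with a median of 8.12 in LKB1 mice, against 8.00, 8.07, 8.29 and 8.36 in untreated mice. The values of the groups interleave, and the log2 difference was -0.06 ± 0.10 (SE), moving to -0.12 without untreated mouse 1 and to 0.00 without untreated mouse 4. A second, dimmer Cdk4 probe gave -0.07 ± 0.10, moving to -0.16 without untreated mouse 1 and to -0.01 without untreated mouse 2. Ccne2, the only one of the 10 genes with no measured probe, was detected on 0 arrays. Its deposited intensity of 16 to 19.4 in LKB1 mice and 17.2 to 21.6 in untreated mice had detection p-values of 0.338 and above, so a difference in cyclin E2 transcript was not detectable on these arrays.

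Cdkn1b, which encodes p27, ranged from 5.61 to 5.94 with a median of 5.82 in LKB1 mice, against 6.17, 6.10, 5.44 and 6.32 in untreated mice. Untreated mouse 3 was the lowest of all 10 mice and the other 3 untreated mice were the highest. The log2 difference was -0.22 ± 0.15 (SE), and it was -0.41 without untreated mouse 3, when the groups no longer overlapped (3.79% of all measured probes without that mouse), and -0.11 without untreated mouse 4. A second Cdkn1b probe passed the detection filter through LKB1 mice alone (4 of 6 LKB1 mice, 0 of 4 untreated mice) and lay near background in both groups, at 4.72 ± 0.15 (SD, n = 6) in LKB1 mice and 4.59 ± 0.08 (SD, n = 4) in untreated mice.

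Cdkn2c, which encodes p18, a Cdk4 and Cdk6 inhibitor, ranged from 6.41 to 6.91 with a median of 6.66 in LKB1 mice, against 6.39, 6.06, 6.85 and 6.86 in untreated mice. The untreated mice split by array set: mice 1 and 2 lay below every LKB1 mouse, and mice 3 and 4 lay above 5 of the 6. The log2 difference of 0.12 ± 0.15 (SE) was accordingly 0.43 within set A, where all LKB1 mice lay above the untreated mice. It was -0.19 within set B, where all lay below. The groups were apart, in either direction, for 23.5% of all measured probes within set A and 21.1% within set B. The contrast between sets was not tested. Without untreated mouse 2 the difference over all remaining mice was -0.04. The better known inhibitor Cdkn1a, encoding p21, averaged 6.58 ± 0.65 (SD, n = 6) in LKB1 mice and 5.22 ± 0.39 (SD, n = 4) in untreated mice. Its log2 difference of 1.36 ± 0.30 (SE), with 0.72 at its other probe, did not pass the limma threshold (adjusted p = 0.353). All LKB1 mice lay above all untreated mice, which held for 0.524% of all 9725 genes. Cdkn1a was detected in 3 of 4 untreated mice.

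E2f1, the transcription factor released by the retinoblastoma protein, was read by 1 probe (ILMN_1231138) that was detected in every mouse. It ranged from 5.62 to 6.11 with a median of 5.96 on the log2 scale in LKB1 mice, against 6.21, 6.37, 6.17 and 6.08 in untreated mice. The only overlap was between LKB1 mouse 2, at 6.11, and untreated mouse 4, at 6.08. Deposited intensities before normalization were 46.7 to 80.3 with a median of 61.6 in LKB1 mice, against 80.0, 82.2, 101 and 68.6 in untreated mice. The log2 difference was -0.30 ± 0.11 (SE), a level 0.813 times that of untreated mice. It was -0.28 within set A and -0.32 within set B, and it stayed between -0.34 and -0.24 when any 1 mouse was left out. With an offset of 50 in place of 16 it was -0.20, and with no background correction -0.23.

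Birc5, encoding survivin, was measured by 1 of its 3 probes (ILMN_2632712), close to the limit of detection. On the log2 scale it had 4.92, 5.0, 4.88, 4.74, 4.78 and 4.85 in LKB1 mice 1, 2, 4, 5, 6 and 7, against 5.20, 5.42, 5.22 and 5.27 in untreated mice. The highest LKB1 mouse lay below the lowest untreated mouse, and all 10 values fell within less than 1 log2 unit. Deposited intensities were 28.6 to 35.8 with a median of 31.8 in LKB1 mice, against 41.8, 45.2, 51.0 and 41.7 in untreated mice, with no overlap before normalization either. Detection p-values were 0.0192 to 0.0513 in LKB1 mice, of which 5 of 6 counted as detected, and 0.00427 to 0.0107 in untreated mice. The means of 4.86 ± 0.09 (SD, n = 6) in LKB1 mice and 5.28 ± 0.10 (SD, n = 4) in untreated mice differed by -0.41 ± 0.08 (SE), or 0.750-fold.

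The size of the Birc5 difference also depended on how background was treated: it was -0.27 with no background correction and -0.21 with an offset of 50, with the groups apart in both. Within set A it was -0.38 and within set B -0.45. The other Birc5 probes did not pass the detection filter. The probe ILMN_2603699, detected on 1 array, averaged 4.54 in LKB1 mice and 4.55 in untreated mice, and ILMN_2681241, detected on none, averaged 4.32 in LKB1 mice and 4.48 in untreated mice.

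The Mir17hg probe (ILMN_2419078) was detected in every mouse. On the log2 scale it had 7.07, 7.02, 7.39, 7.34, 7.53 and 7.43 in LKB1 mice 1, 2, 4, 5, 6 and 7, against 6.73, 6.54, 6.37 and 6.79 in untreated mice. The lowest LKB1 mouse lay above the highest untreated mouse. The means of 7.30 ± 0.20 (SD, n = 6) in LKB1 mice and 6.61 ± 0.19 (SD, n = 4) in untreated mice differed by 0.69 ± 0.12 (SE), or 1.61-fold. The difference was 0.53 within set A, 0.85 within set B and between 0.61 and 0.75 when any 1 mouse was left out.

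Before normalization the Mir17hg groups did overlap. Deposited intensities were 153, 103, 205, 138, 162 and 152 in LKB1 mice, against 112, 93.8, 118 and 109 in untreated mice, so that LKB1 mouse 2 lay below 3 of the 4 untreated mice. With array medians made equal in place of quantile normalization, the log2 difference was 0.55 against a median of -0.16 over all genes, and the same mouse, at 6.69, lay inside the untreated range of 6.46 to 6.76.

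**Figure D2:**
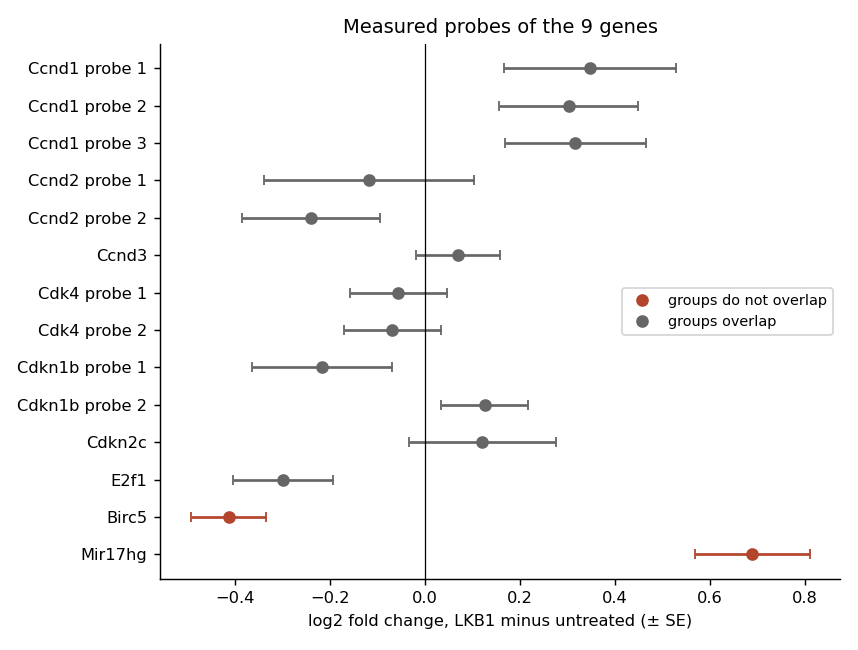
Log2 difference, LKB1 minus untreated, with its standard error from the limma fit (x axis) for the 14 measured probes of 9 genes (y axis); red marks probes whose groups do not overlap. Mir17hg stands at 0.69 and Birc5 at -0.41, and the 3 Ccnd1 probes lie between 0.30 and 0.35.

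**Figure D3:**
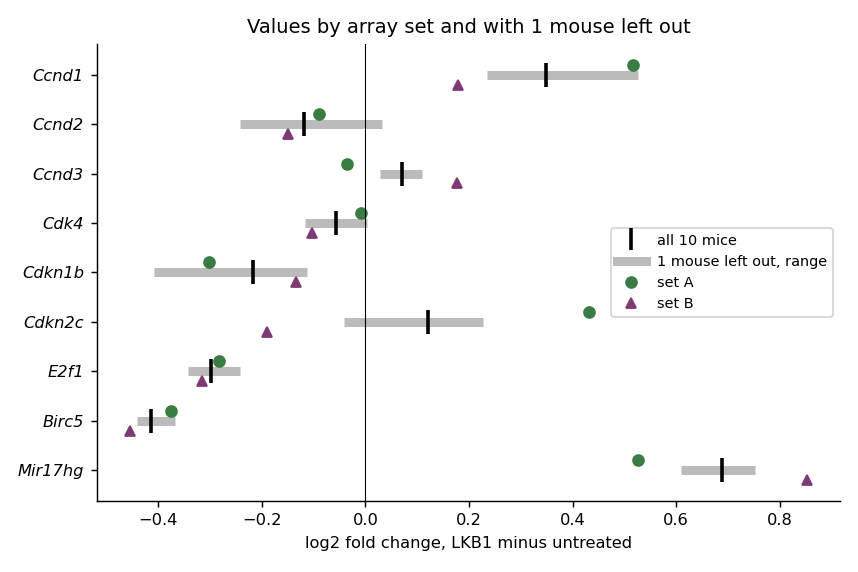
Log2 difference, LKB1 minus untreated (x axis), at the brightest measured probe of 9 genes (y axis): all 10 mice (black line), the range with any 1 mouse left out (grey) and the values within array set A (circle) and set B (triangle). Ccnd1, Cdkn1b, E2f1, Birc5 and Mir17hg keep 1 sign throughout, while Ccnd3 and Cdkn2c differ in sign between the sets.

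Where a gene had more than 1 measured probe, the probes were compared over mice after each group's mean was taken off, which does not use the group difference. The 3 Ccnd1 probes followed each other, with r = 0.762, r = 0.775 and r = 0.953 over 10 mice (adjusted p = 0.0399, 0.0399 and 0.00174 over 6 probe pairs, exact permutation of mice within groups, two-sided). The rank correlations were 0.806, 0.830 and 0.964 (adjusted p = 0.0273, 0.0273 and 0.0031, same exact test). For Ccnd2 r was 0.779 (adjusted exact p = 0.0399), but the rank correlation was 0.576 (adjusted exact p = 0.191) and r was 0.224 without the 2 mice farthest from the median, so that the relation rests on those mice. The 2 Cdk4 probes (r = 0.282, adjusted exact p = 0.597) and the 2 Cdkn1b probes (r = 0.01, adjusted exact p = 0.961) showed no such relation.

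The same centred values were compared between the 9 genes, in 36 pairs, and no pair passed the adjustment over them (smallest adjusted exact p = 0.167). Of the 36 values of r, 3 had an unadjusted p under 0.05, and the signs depended on the scaling: 16 of 36 were kept with array medians made equal and 22 of 36 with set means removed too. Cdk4 and E2f1 gave r = -0.816 over 10 mice (rho = -0.782, exact permutation p = 0.00463 and 0.0147, adjusted 0.167 and 0.529). This r was -0.740 without the 2 mice farthest from the median of Cdk4 and -0.727 with set means removed too, but 0.27 with array medians made equal. E2f1 and Birc5 gave r = 0.774 (rho = 0.721, exact permutation p = 0.0146 and 0.0336, adjusted 0.262 and 0.601), r = 0.587 without the 2 mice farthest from the median of E2f1 and r = 0.630 with set means removed too. Ccnd3 and Cdkn1b gave r = -0.589 (exact permutation p = 0.0403, adjusted 0.484).

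**Figure D4:**
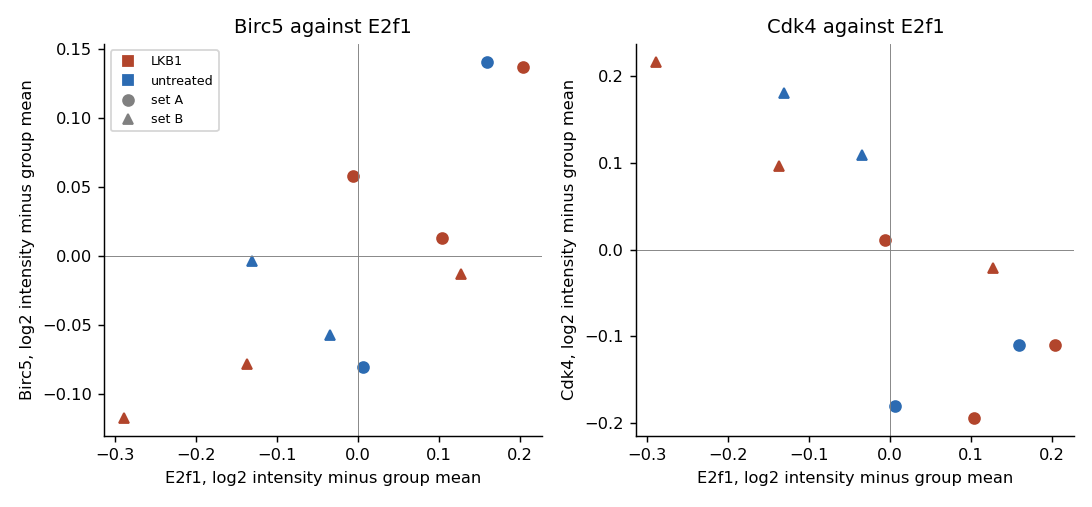
Log2 intensity minus the group mean for Birc5 (left panel, y axis) and Cdk4 (right panel, y axis) against E2f1 (x axis), 1 point per mouse, with LKB1 in red, untreated in blue, array set A as circles and set B as triangles. Birc5 gave r = 0.774 with E2f1 and Cdk4 gave r = -0.816, and neither passed the adjustment over 36 pairs.

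The genes whose values over the 10 mice were most like those of Birc5, E2f1 and Mir17hg were then listed, at each gene's brightest measured probe. All of these correlations contain the group difference and are a description of 10 mice, and since the genes were picked by them, values in the same mice with group means removed follow in part from the choice. Closest to Birc5 were Tef, a circadian PAR bZIP transcription factor (r = 0.949, rho = 0.952), Trib3, a stress-induced pseudokinase (r = 0.935, rho = 0.939), and Cops4, a subunit of the COP9 signalosome (r = 0.928, rho = 0.927). With group means removed these were 0.855 for Tef, 0.740 for Trib3 and 0.701 for Cops4. Their log2 differences were -0.95 for Tef, -0.89 for Trib3 and -0.15 for Cops4.

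Closest to E2f1 were Ceacam20, a cell adhesion molecule of the CEA family (r = 0.962, rho = 0.988), Gch1, the first enzyme of tetrahydrobiopterin synthesis (r = 0.952, rho = 0.891), and Eola1 (r = 0.952, rho = 0.915). With group means removed these were 0.923, 0.908 and 0.923 in the same order. Ceacam20 differed by -0.43, Gch1 by -0.30 and Eola1 by -0.20 on the log2 scale. The Ceacam20 probe was dim, at 5.06 in LKB1 mice and 5.49 in untreated mice. Closest to Mir17hg were Asap2, an Arf GTPase-activating protein (r = 0.923, rho = 0.939), Dnmt3b, a de novo DNA methyltransferase (r = 0.904, rho = 0.964), and Denn2b, named as in the annotation (r = 0.888, rho = 0.891). With group means removed these were 0.660, 0.693 and 0.823 in the same order. The log2 differences were 0.86 for Asap2, 0.82 for Dnmt3b and 0.44 for Denn2b.

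The rest of the pathway was described by 10 lists of 172 genes in all, of which 156 were on the array and 89 were measured. None of the 89 passed the adjusted limma threshold (0%, 0 of 9725 genes at their brightest probe), and 7 had an unadjusted limma p under 0.05. Over all 16803 measured probes 1119 had such a p, and nothing is read from the 7. Of the 89, 37 were higher and 52 lower in LKB1 mice. Over all 9725 genes, 4780 were higher and 4945 lower. The median log2 difference of the 89 was -0.02, against -0.00 over all genes, and no list's count was tested against the rest. In 1 of the 89, Cdkn1a, every LKB1 mouse lay above every untreated mouse, and in 0 below. Over all 9725 genes this held for 0.524% above, 0.792% below and 1.32% together.

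Among E2F factors and their pocket protein partners, 12 of 19 genes were measured, 5 higher and 7 lower, with a median log2 difference of -0.04. Rbbp4, a histone-binding subunit shared by several chromatin complexes, differed by -0.53 ± 0.26 (SE, limma adjusted p = 0.764) and Lin37, a subunit of the DREAM complex, by 0.17 ± 0.11 (SE). Lin37 passed the detection filter mostly through LKB1 mice (4 LKB1 mice, 1 untreated mouse). It lay near background, at 4.74 in LKB1 mice and 4.57 in untreated mice. Rb1, the retinoblastoma gene, differed by 0.03 ± 0.10 (SE), but by -0.11 at its other probe. Rbl1, Rbl2, E2f7, E2f8 and Mybl2 were among the 7 that were not measured. Of the other cyclins and cyclin-dependent kinases only 4 of 18 were measured, and Ccna2, Ccnb2, Ccne1, Cdk1 and Cdk6 were not. Cdc25a, a phosphatase that activates Cdk2, differed by 0.26 ± 0.11 (SE, limma adjusted p = 0.718), and Cdk2 by -0.19 ± 0.10 at its brightest probe, with -0.13, 0.04 and 0.16 at its others. In the list of further kinase inhibitors, beside Cdkn1a, Cdkn2d (p19) differed by -0.18 ± 0.11 (SE).

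Of DNA replication genes, many of them known E2F targets, 19 of 26 measured were lower and 7 higher. The median log2 difference was -0.05, with none past the threshold. Over all 9725 genes 4945 were lower, and the count in this list was not tested against them. Mcm7, a subunit of the replicative helicase, differed by 0.40 ± 0.17 (SE, limma adjusted p = 0.731), but by -0.03 at its other probe. The brighter Mcm7 probe was detected in 6 LKB1 mice and 2 untreated mice, with means of 5.42 and 5.02. Tk1, thymidine kinase, differed by -0.23 ± 0.12 (SE, limma adjusted p = 0.792). Pcna, Mcm6, Cdc6 and Gmnn were not measured. Of the mitosis genes, to which survivin belongs by function, 9 of 27 were measured, 5 higher and 4 lower, with a median of 0.02. Prc1, a microtubule bundler of the mitotic spindle, differed by 0.38 ± 0.15 (SE, limma adjusted p = 0.702). It was detected in 6 LKB1 mice and 3 untreated mice, with means of 5.25 and 4.87. Anln differed by 0.16 ± 0.10 (SE), with 0.01 at its other probe. Anln was detected in 3 LKB1 mice and 1 untreated mouse and lay near background, at 4.73 and 4.57. The passenger complex genes Aurkb and Incenp were not measured.

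In the family of inhibitors of apoptosis and their antagonists, 5 of 6 measured genes were higher, with a median of 0.04, and Xiap differed by 0.18 ± 0.11 (SE) and Diablo, an antagonist, by 0.08 ± 0.08 (SE). Xiap was detected in 4 LKB1 mice and 2 untreated mice and lay near background, at 4.83 and 4.64. Genes for the turnover of D-type cyclins and p27 were lower in 9 of 11 measured genes, with a median of -0.02. Fbxo31, which targets cyclin D1, differed by -0.14 ± 0.11 (SE). Cul1 differed by -0.07 ± 0.16 (SE), but by 0.10 at its other probe. Skp2, the ligase subunit that marks p27, was not measured.

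The genes that process microRNA precursors had 6 of 8 measured members higher and a median log2 difference of 0.07. Xpo5, which exports the precursors from the nucleus, differed by 0.22 ± 0.09 (SE, limma adjusted p = 0.717) and Drosha, which cuts them from the primary transcript, by 0.10 ± 0.09 (SE). Known targets of the miR-17-92 microRNAs were lower in 5 of 7 measured genes, with a median of -0.07. Bcl2l11, which encodes the pro-apoptotic protein BIM, differed by -0.30 ± 0.13 (SE, limma adjusted p = 0.721), with -0.57 within set B and -0.04 within set A, while Cdkn1a, also a known target, differed by 1.36. Of regulators upstream of the 10 genes, Jun differed by 0.53 ± 0.23 (SE, limma adjusted p = 0.730) and Foxo3 by -0.14 ± 0.20 (SE), with 3 of 6 measured genes higher, and Myc was not measured.

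**Figure D5:**
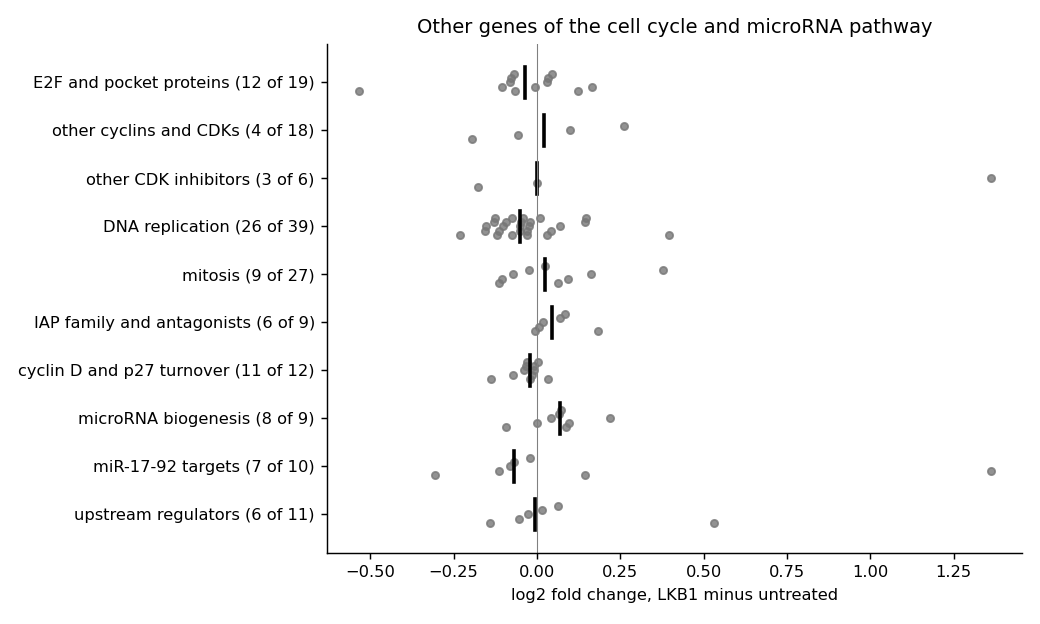
Log2 difference, LKB1 minus untreated (x axis), of each measured gene in the 10 pathway lists (y axis, with the number measured of those on the array); black bars are list medians, which lie between -0.07 and 0.07. Cdkn1a, at 1.36, stands in 2 of the lists, and no gene passed the adjusted threshold.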

How the data were processed

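The deposited table gives, per the file headers, a linear intensity and a detection p-value for each probe and array. The authors' deposited processed values, read as log2 from their comparison with the intensities, served as an alternative, and the submitters' processing notes name the package lumi. Here normexp background correction, with parameters that limma infers from detection, an added offset of 16, quantile normalization and the log2 step were run through neqc of limma 3.58.1 (R 4.3.3). Groups were compared with lmFit and eBayes, two-sided, no covariate, with Benjamini-Hochberg adjustment over all 16803 measured probes. A gene is represented by its brightest measured probe. Gene symbols come from GEO's platform annotation.

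The genes, the lists and the array sets were chosen with earlier results of these data known. Named list genes are the 2 of smallest p in each list, and Rb1 and unmeasured genes were named after their values were seen. The fit was tested on simulated data. All columns of samples were mapped, with 0 left over. The number of arrays limits the precision.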

Additional observations from a re-analysis of the deposited data

Results flagged for a closer look

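Of 28 combinations of a measured probe and a group, 1 held a mouse far from the others of its group. The dim second Cdkn1b probe read 4.43 in LKB1 mouse 6, against 4.72 for the nearest of the other 5 LKB1 mice, a gap that took up 0.672 of the group's range. Chance flags about 5% of groups in this way, and the probe lay near background.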

How the results depend on the processing

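The count of 0 probes past the threshold held under the alternatives run, except for 15 with array medians made equal, and it ranged from 0 to 1 with any 1 mouse left out (1 without LKB1 replicate 2). At an unadjusted p under 0.05 the count was 1119, with 2504 when dim probes were not filtered and 717 without untreated replicate 2. The 2 probes of the 10 genes whose groups did not overlap became 9 within array set A and 6 within set B. Only 5 mice are compared there, and the groups were apart for 23.5% and 21.1% of all measured probes. The count was 1 with array medians made equal (0.649% of all measured probes). It was also 1 among probes detected on all 10 arrays (1.46% of those), which leaves out Birc5. With any 1 mouse left out it was 2 or 3, against 1.87% to 3.79% of all measured probes. Of 291 values of the measured probes over the alternatives, 283 kept their sign and 7 moved by more than 1 SD, among them Mir17hg to 0.47 with a replicate block (E2f1 gave -0.21 there), Ccnd3 to -0.13 and Cdk4 to -0.24 with array medians made equal. Cul1 reversed to 0.16 with the replicate block, 0.17 within set A and 0.0137 without LKB1 replicate 5, Foxo3 to 0.24 with the replicate block and 0.0884 within set A, and Diablo to -0.12 and Drosha to -0.0754 with array medians made equal, which moved the median of all genes to -0.16; the cause of these reversals was not tested. Replicate numbers 1, 2 and 4 are shared between the groups, and mice of the same number gave r = 0.146, 0.239 and -0.17. The best match was LKB1 mouse 1 for untreated mice 1 and 2 and LKB1 mouse 5 for untreated mouse 4. With no reference for these values, they cannot settle whether the numbers pair the mice. With the number as a replicate block 0 probes passed the limma threshold (smallest adjusted p = 0.499, 1043 at an unadjusted p under 0.05). Differences of probes near background, Birc5 above all, are limited by signal over background.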
